A study of Drosophila melanogaster with 12 samples.

Results

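The 10 genes described here serve chemical neurotransmission in Drosophila melanogaster and were chosen by name, with earlier results of these data known. They are Gad1, ChAT, VAChT, VGlut, Vmat, Syt1, Csp, nSyb, brp and elav. A gene was followed through the probe set that the platform annotation gives to that symbol alone, and where a gene had several of these, through the brightest on average. By that rule 9 of the 10 genes had a probe set, among 11982 genes with one, and Syt1 was not analysed here. The measurements came from 12 Affymetrix Drosophila Genome 2.0 arrays of whole adult females of LHM, a large outbred wild-type laboratory population, with 4 arrays in each of 3 groups. Females were collected as virgins 9 days after the eggs were set up, housed singly and given 0.375 mg of live yeast from day 12. They either stayed virgin, mated once (single mated), or mated in both rounds, on days 12 and 13 (double mated), with 60 minutes of male contact in the first round. The males came from a cross between inbred lines derived from LHM and were not virgins, and mated females were frozen 6 hours after mating. Carbon dioxide anesthesia, used to remove the males in the first round, was also given to virgin and single mated females, which met no males that day. Double and single mated females thus differed in the number of matings and in the time since first meeting males, which cannot be told apart. Every array was hybridized with a separate extract of 8 pooled whole flies, so the p-values below measure the spread between such pools. Values are on the log2 scale of the deposited RMA summaries, a method that makes arrays comparable by quantile normalization, and group values are means ± SD over 4 arrays. An array gives no read depth, so the number of arrays limits the precision.

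Fast synapses work by filling small vesicles with transmitter and releasing it when calcium enters the nerve ending. In insects acetylcholine is the main fast excitatory transmitter of the brain, GABA the main inhibitory one, and glutamate the transmitter of the motor nerve endings on muscle. Enzymes make the transmitter, vesicular transporters load it, SNARE proteins and their helpers fuse the vesicle with the membrane, and active zone scaffolds hold the vesicles at the release site. In a whole fly these transcripts are drawn largely from the brain, the nerve cord and the peripheral nerves, though some, such as Csp, are also made in other tissues. In such a mixture, a change in the number of cells of a type, in their share of the RNA and in RNA per cell cannot be told apart.

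Double mated replicate 4 was the most divergent array. Its deviations from the rest of its group had an SD of 0.245 across probe sets, and those of the remaining arrays 0.132 to 0.185, and values without it are given where they change a call. The marker genes fitted whole females: all 10 female germline genes and all 9 measured follicle cell genes had means above the median probe set, and 2 of 10 testis and sperm genes did. Of the 8 measured neuron markers 4 lay above the median probe set, and means of the 9 genes lay between percentiles 42.8 and 85.0 of all probe sets. A probe set's level also depends on its probes, so levels are not compared between genes.

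Gad1, VAChT and Csp rose after mating, while the pan-neuronal and release site genes elav, nSyb and brp and the transporters Vmat and VGlut were not called in any comparison. Gad1, the glutamate decarboxylase that makes GABA, was 1.44-fold higher in mated females (95% interval 1.31 to 1.58), taking both mated groups with equal weight against virgins. VAChT, which loads acetylcholine into vesicles, was 1.38-fold higher (1.24 to 1.54), and Csp, the cysteine string protein that keeps release proteins folded, 1.23-fold higher (1.14 to 1.33). ChAT, the enzyme that makes acetylcholine, was 1.21-fold higher (1.04 to 1.40) and did not pass the threshold in that comparison. In limma 3 of the 9 genes were called higher and 0 lower at an adjusted p under 0.05, against 10.3% of all 18769 probe sets called higher, 14.2% called lower and 24.5% called in either direction. All probe sets include dim and unannotated ones. Of the 11982 genes read like the 9, through the brightest probe set, 1530 were called higher and 2245 lower. Their share called in either direction was near 3 of 9, though most of their calls were lower. The median change of the 9 genes was 0.13, and that of all probe sets was -0.0048. Because the genes were chosen with earlier results known, these shares describe them and do not test a set fixed in advance.

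**Figure D1:**
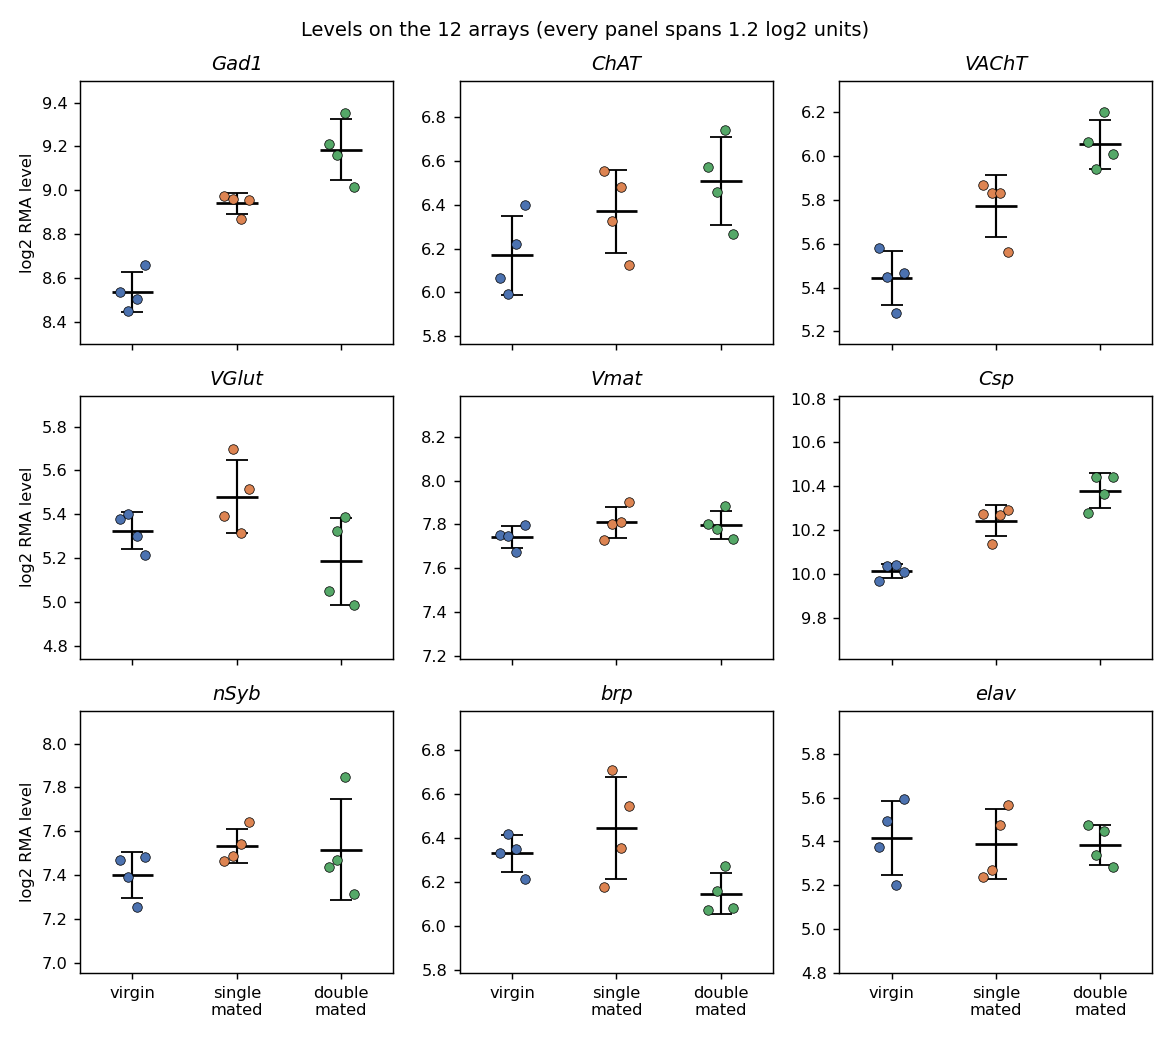
Log2 RMA level of each of the 9 genes on the 12 arrays, with virgin arrays in blue, single mated in orange and double mated in green, and with the bars giving mean and SD of the 4 arrays of a group. Every Gad1 and Csp value of a mated array lies above all virgin values, and the elav groups overlap throughout.

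Among the enzymes, Gad1 read 8.53, 8.45, 8.50 and 8.66 on virgin arrays 1 to 4. The single mated arrays gave 8.97, 8.96, 8.87 and 8.95, and the double mated arrays 9.21, 9.16, 9.35 and 9.01. The groups did not overlap at any step: every virgin array lay below every single mated array, and every single mated array below every double mated array. Such a complete upward order was found in 1.62% of all probe sets. The group means were 8.54 ± 0.09, 8.94 ± 0.05 and 9.18 ± 0.14. Gad1 rose in both mated groups, by 0.40 (SE 0.07, adjusted p = 0.00409) after a single mating and by 0.65 (SE 0.07, adjusted p = 2.88e-05) after a double mating. An exact permutation test gave p = 0.0020 for mated against virgin, the smallest that 495 arrangements allow, and p = 0.0286 for each comparison of 2 groups, the smallest that 70 arrangements allow. The annotation gives the Gad1 probe set to this gene alone, but its name ends in _s_at, which Affymetrix used for probes shared by several transcripts.

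ChAT read 6.07, 5.99, 6.22 and 6.40 on the virgin arrays. It read 6.55, 6.32, 6.48 and 6.12 on the single mated arrays and 6.57, 6.46, 6.74 and 6.26 on the double mated arrays. All 3 groups overlapped, and 5 of 8 mated arrays lay above every virgin array. The means were 6.17 ± 0.18, 6.37 ± 0.19 and 6.51 ± 0.20, and the spread within each group was among the widest of the 9 genes. ChAT was called only for double mated females against virgins, at 0.34 (SE 0.12, adjusted p = 0.0433). That call ended under 12 of 22 alternatives. They were the exact permutation test (p = 0.0571), 3 other adjustments of the arrays, namely median centring, cyclic loess and removal of the trend on gene length (adjusted p = 0.0708 to 0.114), and leaving out any of virgin replicates 1, 2 and 3, single mated replicates 2 and 3 or double mated replicates 1, 2 and 3 (0.0505 to 0.137). For mated against virgin ChAT stood at 0.27 (SE 0.10, adjusted p = 0.0692), and it passed without virgin replicate 4 (0.0329), single mated replicate 4 (0.0335) or double mated replicate 4 (0.0262).

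VAChT is the vesicular partner of ChAT, and in the fly both are transcribed from a single cholinergic locus, where VAChT lies within ChAT and shares its first exon. In the RefSeq gene table of Release 6 both genes begin at the same base, and the span of VAChT lies inside that of ChAT. VAChT read 5.58, 5.45, 5.28 and 5.47 on virgin arrays, 5.87, 5.83, 5.83 and 5.56 on single mated arrays and 6.07, 5.94, 6.20 and 6.01 on double mated arrays. Of 8 mated arrays, 7 lay above every virgin array, single mated replicate 4 being the exception, and all double mated arrays lay above all single mated arrays. The means were 5.45 ± 0.12, 5.77 ± 0.14 and 6.05 ± 0.11. VAChT rose by 0.61 (SE 0.08, adjusted p = 1.18e-04) in double mated females. Its rise in single mated females, 0.33 (SE 0.08, adjusted p = 0.0256), lost the call with arrays centred on their medians (0.0584), with cyclic loess (0.0778) and without any of virgin replicates 2, 3 and 4 or single mated replicates 1, 2 and 3 (0.0524 to 0.0923), and the exact permutation test gave p = 0.0571. ChAT and VAChT thus had the same sign in every comparison, with larger estimates for VAChT, and the difference between their changes was not tested.

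VGlut, the vesicular glutamate transporter, was higher in single mated and lower in double mated females than in virgins by its estimates, neither of them called. It read 5.38, 5.40, 5.30 and 5.22 in virgins, 5.39, 5.70, 5.31 and 5.52 in single mated females and 5.05, 5.32, 5.39 and 4.99 in double mated females. The groups overlapped, with means of 5.32 ± 0.08, 5.48 ± 0.17 and 5.19 ± 0.20. No comparison passed: single mated against virgin stood at 0.15 (95% interval -0.06 to 0.37, adjusted p = 0.375) and double mated against virgin at -0.14 (-0.35 to 0.08, adjusted p = 0.356). Vmat, which loads dopamine, serotonin, octopamine and histamine into vesicles, varied least, with all 12 arrays between 7.67 and 7.90. Its change was 0.07 after a single mating (-0.06 to 0.19) and 0.06 after a double mating (-0.07 to 0.18). After centring arrays on their medians, the double mated estimate for Vmat became -0.01.

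Csp read 9.97, 10.04, 10.04 and 10.01 on the virgin arrays. It read 10.27, 10.14, 10.27 and 10.29 after a single mating and 10.28, 10.44, 10.36 and 10.44 after a double mating. All 8 mated arrays lay above all 4 virgin arrays, as for Gad1. Thus 2 of the 9 genes had this separation upward, against 5.51% of all probe sets. The means were 10.01 ± 0.03, 10.24 ± 0.07 and 10.38 ± 0.08, the virgin arrays lying closer together than for any of the other 8 genes. Csp rose by 0.37 (SE 0.06, adjusted p = 3.34e-04) in double mated females and by 0.23 (SE 0.06, adjusted p = 0.0249) in single mated females. The single mated call ended under 8 of 23 alternatives, among them with arrays centred on their medians (0.0794) and when any one virgin array or single mated replicate 3 or 4 was left out (0.0503 to 0.0794).

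The other vesicle and release site genes were not called. nSyb, the neuronal synaptobrevin that forms the vesicle side of the SNARE complex, averaged 7.40 ± 0.10, 7.53 ± 0.08 and 7.52 ± 0.23, with double mated values from 7.31 to 7.85. Its change for mated against virgin was 0.13 (-0.06 to 0.31, adjusted p = 0.343). brp, the Bruchpilot scaffold of the active zone, read 6.33, 6.42, 6.35 and 6.21 in virgins, 6.18, 6.71, 6.35 and 6.55 in single mated females and 6.07, 6.16, 6.27 and 6.08 in double mated females. The single mated arrays of brp reached both below and above the virgin range, while 3 of the 4 double mated arrays lay below every virgin array. Its change was 0.12 (-0.09 to 0.33) after a single mating and -0.18 (-0.39 to 0.03) after a double mating, neither of which passed (adjusted p = 0.510 and 0.196). elav, the RNA-binding protein found in all neurons and used as their marker, averaged 5.42 ± 0.17, 5.39 ± 0.16 and 5.39 ± 0.09, and none of the 8 mated arrays exceeded the highest virgin array. The change of elav for mated against virgin was -0.03 (-0.20 to 0.14, adjusted p = 0.846).

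**Figure D2:**
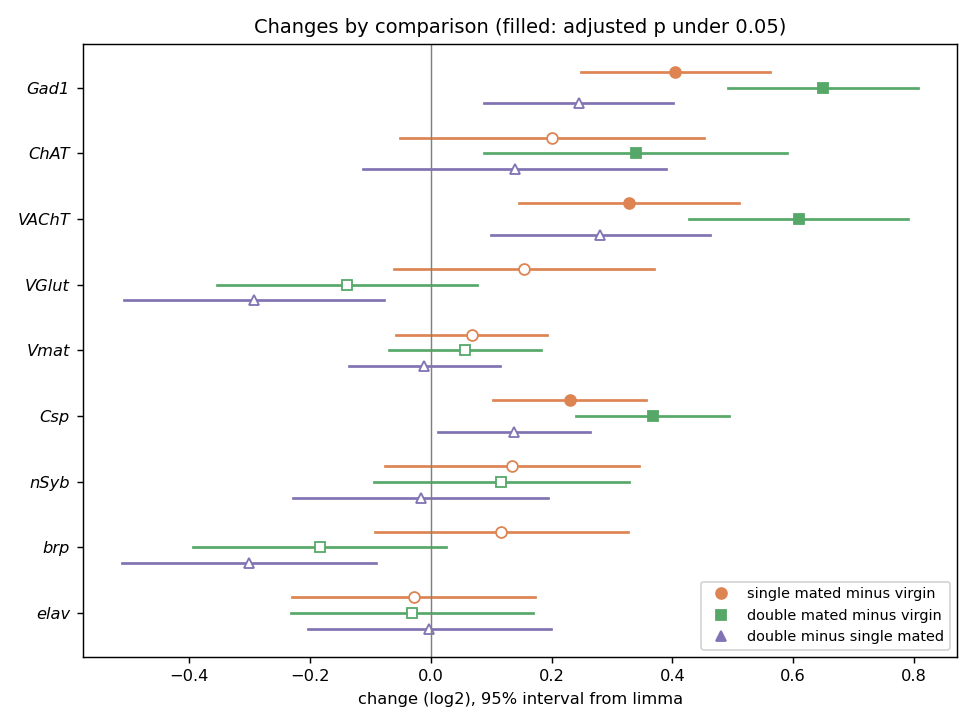
Change of the 9 genes on the log2 scale with its 95% interval from limma, for single mated minus virgin (circles), double mated minus virgin (squares) and double minus single mated (triangles), filled where the adjusted p is under 0.05. Gad1, VAChT and Csp are filled against virgins in both mated groups, ChAT in the double mated group, and no gene is filled between the mated groups.

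By group, 3 of the 9 genes were called higher in single mated females (Gad1, VAChT and Csp), where 4.49% of all probe sets were called higher, 5.17% lower and 9.66% in all. In double mated females 4 of 9 were called higher (with ChAT), against 12.3% of all probe sets higher, 15.7% lower and 28.1% in all. Of the 11982 genes 675 were called higher and 855 lower in single mated females, and 1843 higher and 2410 lower in double mated females. None of the 9 was called lower in either group. All single mated arrays lay above all virgin arrays for Gad1 and Csp, as for 8.28% of probe sets, and all double mated arrays did for Gad1, VAChT and Csp, as for 11.6%. Both comparisons use the same 4 virgin arrays. For Gad1 the change was 0.40 in single and 0.65 in double mated females, for VAChT 0.33 and 0.61, for ChAT 0.20 and 0.34, and for Csp 0.23 and 0.37. The moderated F test over the 3 groups called Gad1 (adjusted p = 9.49e-05), VAChT (4.26e-04) and Csp (0.00111), against 24.9% of all probe sets.

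The direct comparison of double with single mated females called 0 of the 9 genes in limma. Of all probe sets 3.55% were called higher, 1.74% lower and 5.29% in all, and of the 11982 genes 560 higher and 247 lower. In this comparison the number of matings goes together with the time since first meeting males. An unadjusted p under 0.05 was found for 5 of the 9, against 21.6% of all probe sets and 2997 of the 11982 genes. The 5 did not share a direction. Gad1 was 0.24 higher in double mated females (95% interval 0.09 to 0.40, adjusted p = 0.0682), VAChT 0.28 higher (0.10 to 0.46, adjusted p = 0.0700) and Csp 0.14 higher (0.01 to 0.26, adjusted p = 0.192). VGlut stood at -0.29 (-0.51 to -0.08, adjusted p = 0.105) and brp at -0.30 (-0.51 to -0.09, adjusted p = 0.0896). All 4 double mated arrays lay above all 4 single mated arrays for Gad1 and VAChT, a separation seen in 5.63% of all probe sets, and for VGlut and brp the 2 groups overlapped. Without double mated replicate 4, the lowest of its group for Gad1, the Gad1 difference was 0.30 and passed (adjusted p = 0.0129). Without single mated replicate 1, the lowest of its group for brp, the brp difference was -0.39 and passed (adjusted p = 0.0309). These are the widest differences when 1 array is left out. The range was 0.19 to 0.30 for Gad1 and -0.39 to -0.21 for brp, and brp passed in 1 of 22 alternatives. The other 4 genes had changes from -0.02 to 0.14 between the mated groups.

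Several genes had more than 1 probe set, and these did not all agree. brp and Vmat had 4 each and VGlut had 2. None of the 10 was called in any of the comparisons. For brp, the mated against virgin change was -0.03 on the probe set used here and -0.08, 0.11 and 0.19 on the others, whose means over the 12 arrays, 3.93 to 4.23, lay below the 6.31 of the probe set used. The brp difference of -0.30 between the mated groups came from that single probe set, and the others gave -0.10, -0.09 and 0.07. The second VGlut probe set gave -0.12 for mated against virgin, where the one used gave 0.01, an estimate that also changed sign with arrays centred on their medians (-0.06) and with cyclic loess (-0.03).

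Likeness between the 9 genes across the 12 arrays is described by Pearson's r over arrays that include the group differences. Gad1 and VAChT had r = 0.91, Gad1 and Csp 0.85, VGlut and brp 0.88 and Vmat and nSyb 0.88. Once the group means were removed, r was 0.36 for Gad1 with VAChT and -0.40 for Gad1 with Csp. The 5 highest values after that step were 0.85 for Vmat with nSyb, 0.84 for Vmat with elav, 0.79 for VGlut with brp, 0.74 for Gad1 with nSyb and 0.70 for Gad1 with ChAT. Double mated replicate 3 was above the 12-array mean for 8 of the 9 genes and double mated replicate 4 for 3 of 9. Over the 9 genes, the mean deviation was -0.19 to -0.07 in virgins, 0.02 to 0.08 in single mated females, and -0.04 to 0.22 in double mated females.

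The genes whose pattern over the 12 arrays was most like each called gene were found among 11981 others. For Gad1 they were tna, CG32017 and Mob2 (r = 0.98, 0.98 and 0.98). For VAChT they were lncRNA:CR42862, CG4577 and GlcAT-P (0.97, 0.96 and 0.96), and for Csp they were S6k, a kinase of the growth-promoting TOR pathway, CG7695 and Acsl, an acyl-CoA synthetase (0.98, 0.97 and 0.97). For ChAT they were Syngr, the synaptic vesicle protein synaptogyrin, CG11000 and CG42540 (0.92, 0.91 and 0.89).

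The same comparison was made for 143 measured genes of 161 in 8 related lists that did not include the 9. These lists were also chosen with earlier results of these data known, so their shares are description. For mated against virgin 38 were called higher and 3 lower, 28.7% in all against 24.5% of all probe sets. All probe sets include dim and unannotated ones, while the 143 genes are each read through the brightest probe set. Of the 11982 genes read in that way 1530 were called higher and 2245 lower. In either direction that is a larger share than of the 143, with most calls lower. The median change of the 143 was 0.08. After centring arrays on their medians, 29 were called higher and 9 lower and their median was 0.02, while the median of all probe sets moved from -0.0048 to -0.07. The share of calls that were higher among all probe sets was 41.9%, and 26.3% with that centring and 53.0% with cyclic loess. In single mated females 12 of the 143 rose and 0 fell, 8.39% called against 9.66% of all probe sets. Of the 11982 genes 675 rose and 855 fell, a larger share in all than of the 143. In double mated females 46 rose and 4 fell, 35% against 28.1%. Of the 11982 genes 1843 rose and 2410 fell, in all about the same share as of the 143.

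By list, the share called for mated against virgin is set beside 24.5% of all probe sets, with 10.3% higher and 14.2% lower. Of the 11982 genes read through the brightest probe set, as the list genes are, 1530 were called higher and 2245 lower, a larger share. It was 50% for release machinery, 53.3% for pan-neuronal genes, 42.9% for endocytosis and 35.7% for synthesis and breakdown. Active zone and adhesion had 23.5%, and transporters and ion channels 22.2% each. Vesicle release machinery had 9 of 20 genes higher and 1 lower, with a median of 0.17. Sap47, a synapse-associated protein, rose by 0.59 (SE 0.06, adjusted p = 2.52e-05). cpx, the complexin that clamps the SNARE complex, rose by 0.57 (SE 0.07, adjusted p = 6.32e-05), Syn, the synapsin that tethers vesicles, by 0.43 (SE 0.08), and the SNARE gene Snap25 by 0.42 (SE 0.06). For each of these 4 genes all 8 mated arrays lay above all virgin arrays. Sap47 and Snap25 were also higher in double than in single mated females, by 0.39 (adjusted p = 0.00523) and 0.27 (adjusted p = 0.0428). The gene that fell, named after its values were seen, was Rop, the fly Munc18, at -0.23 (SE 0.05, adjusted p = 0.00650).

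Vesicle endocytosis, which recovers vesicle membrane after release, had 5 of 14 genes higher and 1 lower, with a median of 0.10. Amph, the fly amphiphysin, known in flies mostly from muscle membranes, rose by 0.48 (SE 0.06), the clathrin adaptor AP-2alpha by 0.47 (SE 0.06), nwk by 0.35 (SE 0.07) and EndoA, endophilin, by 0.32 (SE 0.06). The gene that fell, Dap160, named after its values were seen, stood at -0.20 (SE 0.06, adjusted p = 0.0348). With arrays centred on their medians the list had 5 higher and 4 lower, and with cyclic loess 8 higher and 0 lower.

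Transmitter synthesis and breakdown had 5 of 14 genes higher and 0 lower, with a median of 0.02. Gs2, a glutamine synthetase that glia use to recycle glutamate, rose by 0.71 (SE 0.18, adjusted p = 0.00896) and Pu, the GTP cyclohydrolase that provides the cofactor of dopamine synthesis and the start of eye pigment synthesis, by 0.60 (SE 0.06). Tdc1, the tyrosine decarboxylase expressed mainly outside the nervous system, rose by 0.60 (SE 0.08), and t, which frees histamine and dopamine from their beta-alanine conjugates, by 0.23 (SE 0.07). Ace, the acetylcholinesterase that ends the acetylcholine signal, named after its values were seen, rose by 0.25 (SE 0.08, adjusted p = 0.0253). With arrays centred on their medians this list had 3 higher and 2 lower. Among 9 measured transporters of the plasma membrane and vesicle, Eaat2 rose by 0.39 (SE 0.06) and ine by 0.20 (SE 0.06), and none fell, and 1 of the 9 was called with arrays centred on their medians. The partners of the cholinergic and GABA genes in this list were named after their values were seen. ChT, which takes up choline for acetylcholine synthesis, was called in double mated females at 0.56 (adjusted p = 0.0229) and stood at 0.40 for mated against virgin (adjusted p = 0.0652). VGAT, which loads GABA into vesicles, was not called with Gad1 and stood at -0.04 (SE 0.06, adjusted p = 0.714).

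Among genes of the receiving side, transmitter receptors had 2 of 36 higher and 0 lower, 5.56% against 24.5% of all probe sets, with a median of 0.07. Both were nicotinic acetylcholine receptor subunits, nAChRbeta1 at 0.36 (SE 0.09) and nAChRbeta3 at 0.31 (SE 0.08). Active zone and synaptic adhesion had 4 of 17 higher and 0 lower, with a median of 0.12, among them wit (0.41, SE 0.07), a receptor for the muscle-derived signal gbb, and gbb itself (0.28, SE 0.06). RhoGAP100F and Nlg2 also rose, by 0.33 (SE 0.08) and 0.25 (SE 0.07). Neuronal ion channels had 3 of 18 higher and 1 lower, with a median of 0.01: the calcium-activated potassium channel SK rose by 0.49 (SE 0.11), the sodium pump subunit nrv3 by 0.41 (SE 0.09) and the pacemaker channel Ih by 0.37 (SE 0.07), and sei, the fly ERG potassium channel, fell by 0.31 (SE 0.08).

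Pan-neuronal genes had 8 of 15 higher and 0 lower, with a median of 0.18, and 3 higher with arrays centred on their medians and 4 higher once each array's trend on gene length was removed. Appl, the fly amyloid precursor protein, rose by 0.42 (SE 0.09), Rbp9, an RNA-binding relative of elav that also acts in the germline, by 0.38 (SE 0.08), nrm by 0.31 (SE 0.08) and the transcription factor gene onecut by 0.21 (SE 0.06). The onecut probe set was dim, with a mean of 4.25 over the 12 arrays, near the median of 4.16 among the testis and sperm markers.

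**Figure D3:**
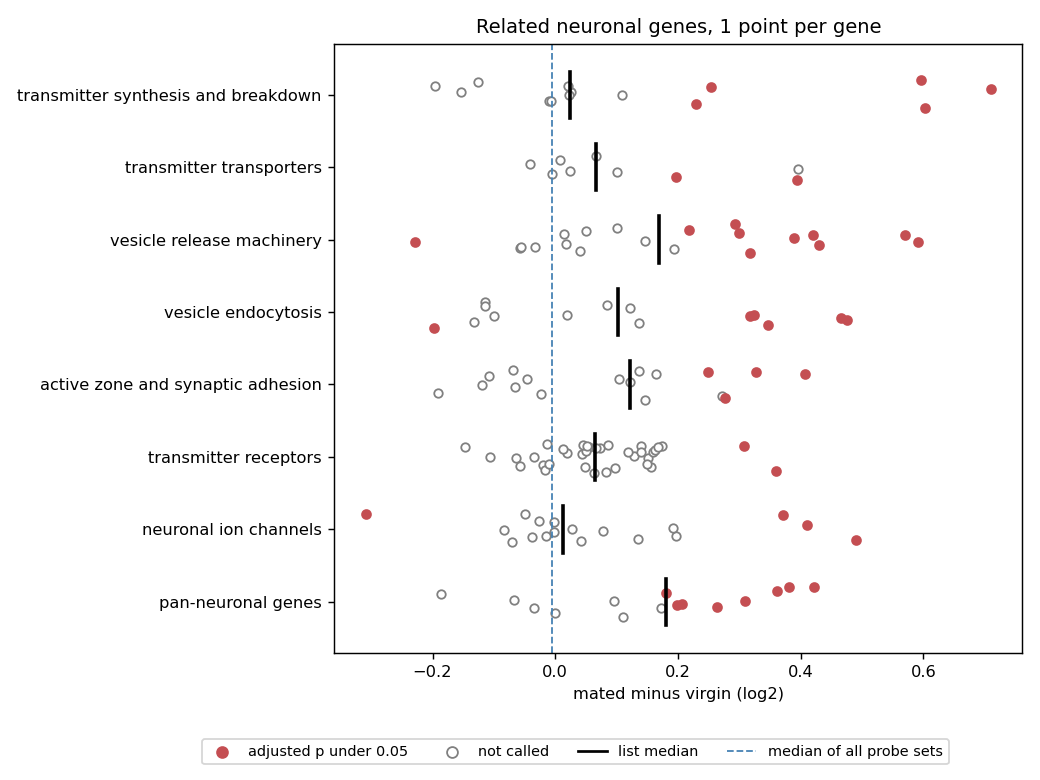
Mated minus virgin change on the log2 scale for each measured gene of the 8 related lists, red where the adjusted p is under 0.05, with the list median as a black bar and the median of all probe sets as a dashed line. Calls are mostly to the right, with 9 of 20 release machinery genes and 8 of 15 pan-neuronal genes higher against 2 of 36 receptors. Of all probe sets 10.3% were called higher and 24.5% in all. The active zone (23.5%), ion channel (22.2%) and transporter (22.2%) lists lie near that share. They lie below the share of the 11982 genes read in the same way, of which 1530 were called higher and 2245 lower. The lean to the right is smaller with arrays centred on their medians.

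Markers of other tissues of the head and body were counted in the same way for mated against virgin, where 24.5% of all probe sets were called, and their part in the changes of the 9 genes was not tested. Glia had 3 of 8 measured markers higher (nrv2, Gs2 and alrm) and 0 lower, while the defining glial factor repo stood at 0.11 (SE 0.08, adjusted p = 0.383). The log2 of their summed level was 11.27 to 11.47 in virgins, 11.65 to 12.18 in single mated and 11.53 to 12.26 in double mated females. Photoreceptor markers had 5 of 6 higher, with sums of 13.28 to 13.46, 13.53 to 13.55 and 13.66 to 13.87. Muscle markers had 6 of 8 higher, with sums of 14.19 to 14.53, 14.53 to 14.71 and 14.56 to 14.79. Neither list had a gene called lower. The neuron markers themselves, which include elav, nSyb and brp, had 2 of 8 higher (Snap25 and Appl) and 0 lower. That share of 25% lies near that of all probe sets. It lies below that of the 11982 genes read in the same way, of which 1530 were called higher and 2245 lower. Their sums were 9.87 to 10.02, 10.07 to 10.20 and 10.13 to 10.40. Sums are carried mostly by bright genes, and Snap25 was the brightest neuron marker and Gs2 the brightest glial one. As mean deviations, the neuron markers read -0.16 to -0.006 in virgins and 0.004 to 0.14 in single mated females. Double mated females, at -0.11 to 0.13, overlapped the virgins. Follicle cell markers had 4 of 9 higher and 0 lower, with sums of 16.61 to 16.93, 16.70 to 17.01 and 16.92 to 17.23. Female germline markers had 2 of 10 higher and 4 lower, with sums of 15.004 to 15.07, 14.89 to 15.01 and 14.88 to 15.22. Fat body markers had 4 of 9 higher and 2 lower. Of the testis and sperm markers, 0 of 10 were called, and of the receptors of the nerve-muscle junction, which glutamate from motor endings opens, 0 of 4 were. With arrays centred on their medians 1 gene of each of these last lists was called lower.

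**Figure D4:**
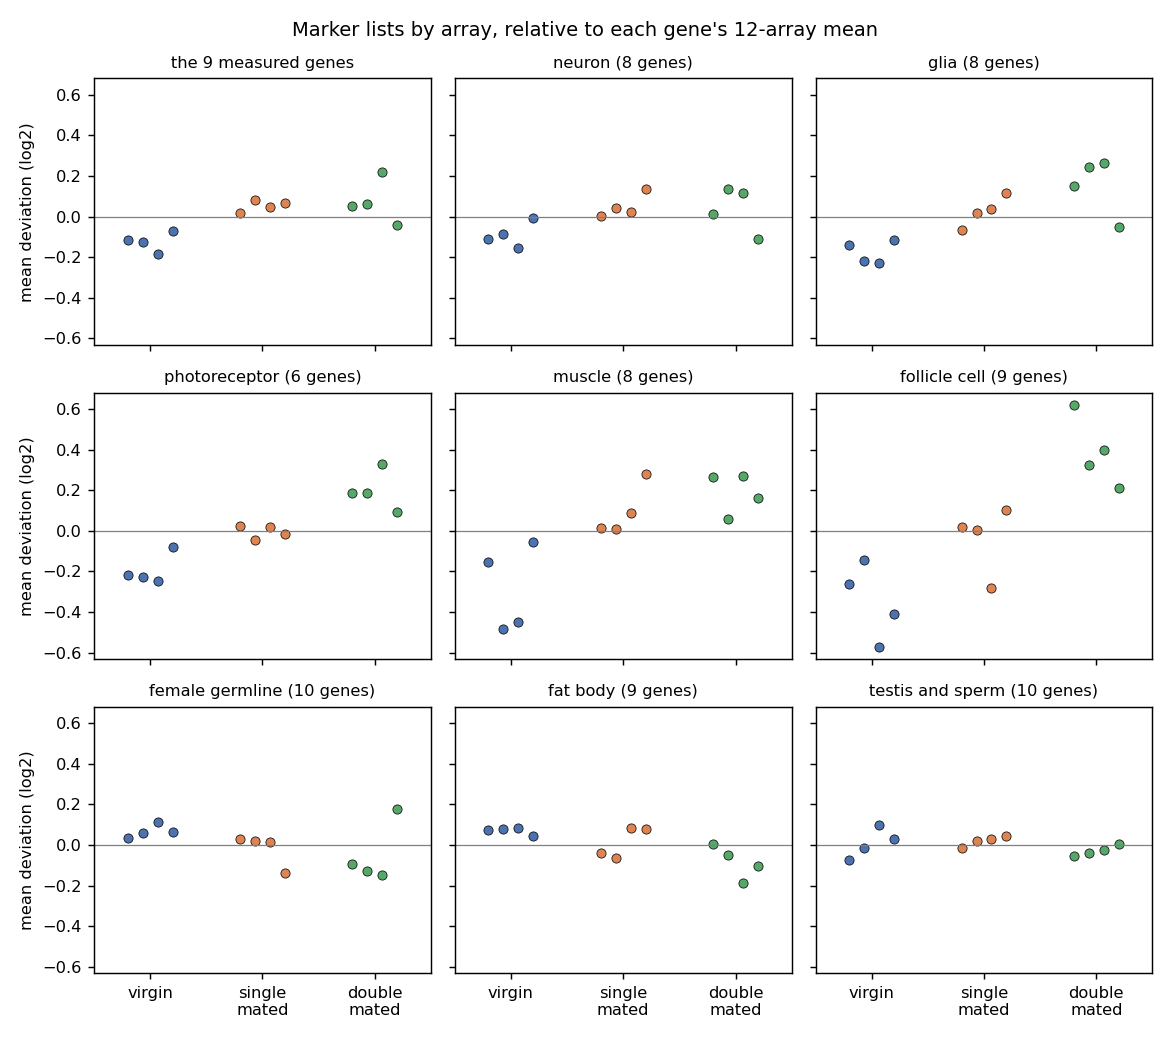
Mean deviation from each gene's 12-array mean on the log2 scale, over the 9 genes and over 8 marker lists, with 1 point per array and the groups in blue, orange and green. The virgin arrays of the 9 genes lie from -0.19 to -0.07, below every mated array. The gap is narrow, with virgin replicate 4 at -0.07 and double mated replicate 4 at -0.04. The medians of all probe sets on these arrays were 5.98 and 6.02, and the deviations are not adjusted for them. The mean also takes in genes that were not called, such as elav and brp. The lowest array of the neuron, glia, muscle, photoreceptor and follicle cell panels is also a virgin one.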

How the data were processed

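Total RNA of pooled whole females was hybridized to 12 arrays. The deposited values are log2 RMA summaries made by the authors, 1 per probe set, and the submitters' processing notes name RMA and affy. Of 18952 probe sets, 183 controls were left out and all other 18769 tested, dim ones included. The annotation gives 1 symbol to 13647, several to 402 and none to 4720. One limma model (3.58.1, lmFit and eBayes, R 4.3.3) covered the 3 groups, with Benjamini-Hochberg adjustment over all probe sets and a threshold of 0.05. Intervals are 95% limma intervals. The fit was tested on simulated data with independent noise for every probe set. That simulation held no array effects and no divergent array, so it does not cover these features of the real arrays. Exact permutation tests were two-sided. The labels give no hybridization batches. Of 12 same-numbered pairs of arrays, 1 had deviations correlated above 0.1, so replicate numbers were not used for pairing.

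Besides the 9 genes, the rule named up to 4 called genes of every list with the smallest p, and for each called gene the 3 genes with the highest correlation. The 10 genes and all lists were chosen with earlier results of these data known. Alternatives covered scaling, a minimum signal, the prior variance, weights for arrays, probe set choice, the arrays fitted and leaving out each array. Lists without double mated replicate 4 were added after seeing the data.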

Additional observations from a re-analysis of the deposited data

Results flagged for a closer look

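In 2 of 27 groups of 4 arrays 1 array stood far from the others by Dixon's criterion, which chance meets in about 1 of 20 groups. VAChT in single mated replicate 4 read 5.56, below the 5.83 to 5.87 of the other 3 arrays of its group. Csp in single mated replicate 2 read 10.14, below the 10.27 to 10.29 of the other 3.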

How the results depend on the processing

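The calls of Gad1, VAChT and Csp in mated and in double mated females against virgins, and of Gad1 in single mated females, kept their direction and side of the threshold under every alternative in which the gene was tested, with mated changes of 0.46 to 0.59, 0.41 to 0.51 and 0.23 to 0.38. The count of genes called in single mated females, 3, was 1 with arrays centred on their medians and 1 to 3 with 1 array left out, falling to 1 without virgin replicate 2, 3 or 4 or single mated replicate 3. The count in double mated females, 4, was 2 among probe sets with a mean of at least 7, a filter that keeps 4 of the 9 genes and neither VAChT nor ChAT. The count between the mated groups, 0, was 1 with a mean of at least 5, 1 with a mean of at least 7 and 1 with array weights, each time Gad1 (adjusted p = 0.0457, 0.0353 and 0.0188), and 0 to 1 with 1 array left out. ChAT was also called in mated females with array weights (0.31, adjusted p = 0.0144). Same-numbered arrays correlated at -0.26 to 0.14 and 2 of 12 correlated best with their own number. With a replicate block the counts were 3 in mated, 2 in single mated, 4 in double mated females and 0 between the mated groups, Csp in single mated females missing the threshold (adjusted p = 0.0553). Sign changes touched only estimates that were never called in those settings. For mated against virgin, VGlut (0.01) became -0.056 centred, -0.032 with cyclic loess, -0.017 with the length trend removed and -0.057 over both probe sets, and -0.029 to 0.041 with 1 array left out. Vmat became -0.0015 centred, and in double mated females -0.011. brp became 0.048 over its probe sets and -0.078 to 0.011 with 1 array left out. Leaving out 1 array gave elav -0.10 to 0.029 in mated, -0.10 to 0.031 in single mated and -0.10 to 0.028 in double mated females. Between the mated groups, nSyb became 0.021 with array weights and -0.13 to 0.051 with 1 array left out, elav 0.012 with cyclic loess, 0.0088 with array weights and -0.053 to 0.057 with 1 array left out, and Vmat -0.039 to 0.019 with 1 array left out. The cause of these shifts was not tested. The fit restricted to the groups compared does not apply to the mated contrast or the F test, which use all arrays. Signal over background was not analysed here.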
